A study of Mus musculus with 4 samples.

Results

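NB2 is a cluster of neuroblast nuclei from the adult mouse dentate gyrus, and its members were the nuclei that carried the name NB2 in the study's deposited cluster assignment. There were 726 such nuclei among the 14367 that the study kept in its first dataset. They came from 3 of the 4 libraries: 560 from w1, 148 from w2 and 18 from w4. The w8 library held 0 of them, and a count of 0 among its 3426 kept nuclei allows a share of up to 0.0876%. The 4 libraries, w1, w2, w4 and w8, were prepared at weeks 1, 2, 4 and 8 from the tamoxifen injections. All mice carried a tamoxifen-inducible Cre active in neural stem and progenitor cells together with the CAGfloxStop-Sun1/sfGFP reporter, on a C57BL/6J background, male and female, 6 to 8 weeks of age, and all received tamoxifen, so there was no untreated or unlabelled group. In these mice tamoxifen activates Cre in those cells, and the green nuclear envelope protein Sun1-sfGFP then stays in all of their progeny. Nuclei of several mice were pooled for each time point, sorted for green fluorescence and sequenced as 1 droplet library, so in this dataset each week is 1 sample with no replicate. The study's second dataset is not analysed here. In it the study's transfer of cluster labels named very few nuclei NB2, and these were set aside. The study held this to be probably due to the lack of a week 1 time point, although weeks 2 and 4 were included.

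Neuroblasts of the dentate gyrus are postmitotic daughters of the radial glia-like stem cells and their dividing progenitors. They express the microtubule-associated protein doublecortin, extend their first neurites, migrate a short way into the granule cell layer and become immature granule cells. The study placed its 2 neuroblast clusters, NB1 and NB2, between the progenitors (NPC) and the youngest immature granule cells (GCimm1). It described NB2 as a path that leaves NB1 and runs in parallel toward GCimm1. NB1 of the same library was therefore the closest comparison for NB2, with GCimm1 as the next stage.

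The libraries held between 13227971 and 28595331 unique molecules (UMIs) in kept nuclei, and NB2 nuclei together held 3702702. The median NB2 nucleus had 5056.5 UMIs in w1, 4934.5 in w2 and 4054.5 in w4, against 4064, 4171 and 3308.5 in NB1. After each nucleus was thinned to 2000 UMIs the median number of detected features no longer differed in this way, with 1226, 1254 and 1231.5 in NB2 and 1221, 1273 and 1237 in NB1. Only 27 cell barcodes were shared by a pair of libraries, and 1 of them belonged to an NB2 nucleus.

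NB2 made up a larger share of the neuroblasts in w1 than at the later weeks. It was 27.3% of NB1 and NB2 nuclei together in w1 (560 of 2052, exact 95% binomial interval 25.4 to 29.3), 13.4% in w2 (148 of 1104, 11.5 to 15.6) and 12.2% in w4 (18 of 148, 7.37 to 18.5). As a share of all kept nuclei it was 19.5% in w1, 3.49% in w2 and 0.470% in w4. The interval of w1 lay apart from those of the later weeks, while w2 and w4 overlapped. Intervals here and below cover counting error only, and with 1 pool of mice a week the weeks were not tested.

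The NB2 nuclei of each library came almost entirely from mice of a single sex, and the sex was not the same in the 3 libraries. A nucleus was called male or female by whether it held more UMIs of the Y-linked genes Ddx3y, Uty and Eif2s3y or of Xist and Tsix, the transcripts of X inactivation. In w1, 406 of 408 called NB2 nuclei were male (99.5%, 98.2 to 99.9), in w2 13 of 142 were male (9.15%, 4.97 to 15.1) and in w4 12 of 12 were male (100%, 73.5 to 100). NB1 nuclei of the same libraries were mixed, with 54.5% male of 1303 in w1, 34.2% of 890 in w2 and 24.4% of 123 in w4. GCimm1 nuclei of w1 were 96.1% male of 102. When only nuclei with a difference of at least 2 UMIs were called, NB2 was 99.3%, 5.93% and 100% male in w1, w2 and w4. By that call NB1 was 45.0%, 26.3% and 14.2% male, below its shares by any difference.

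**Figure D1:**
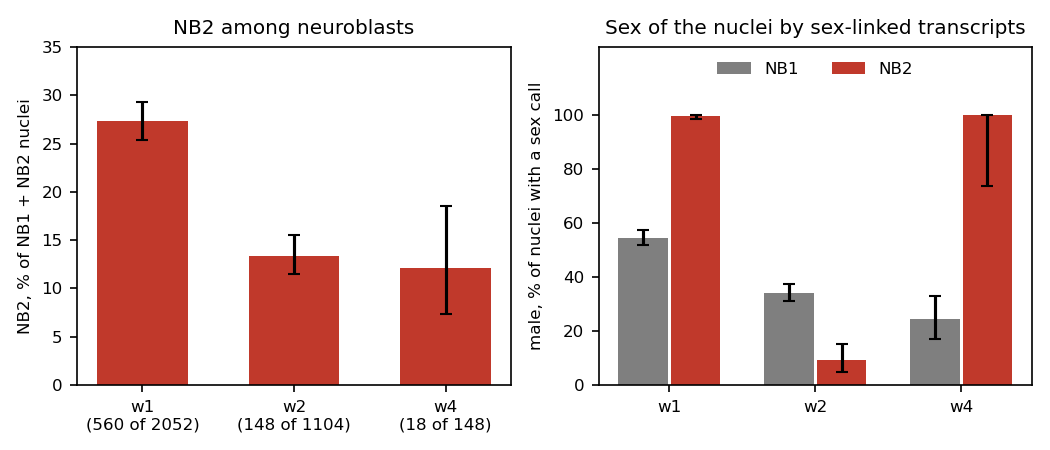
NB2 as a share of NB1 and NB2 nuclei (left) and the percentage of male nuclei among those with a sex call in NB2 and NB1 (right) for w1, w2 and w4, with exact 95% binomial intervals as bars. NB2 was 27.3% of neuroblasts in w1 and 13.4% in w2, and its nuclei were 99.5% male in w1, 9.15% in w2 and 100% in w4, while NB1 held both sexes in every library.

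The files do not assign nuclei to mice. Within a library, a difference between NB2 and NB1 and a difference between the mice that gave those nuclei therefore cannot be told apart, except as far as nuclei of the same sex can be compared. The total number of genes called against NB1 and GCimm1 is given below also for nuclei of the sex that NB2 has in that library, which were 710 NB1 and 406 NB2 male nuclei in w1, 586 and 129 female nuclei in w2, and 30 and 12 male nuclei in w4. Same-sex nuclei may still come from different mice.

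Several transcripts of postmitotic neuroblasts of the granule lineage stood in NB2 at levels close to those of NB1. Levels are UMIs per 1000000 UMIs of the cluster (CPM), and since reads come from the 3′ end and from introns they were compared between clusters but not between genes. Dcx, which encodes doublecortin, stood at 397 CPM in w1, 404 in w2 and 602 in w4 in NB2, against 481, 411 and 484 in NB1. Prox1, the homeobox factor of granule cell identity, stood at 723, 628 and 717 CPM in NB2 and at 912, 797 and 872 CPM in NB1, and Sox11 and Igfbpl1 were likewise close. None of Dcx, Prox1, Sox11 and Igfbpl1 passed the test described below, but 5 of 15 tested genes of the neuroblast list did. Of 18 tested granule cell identity genes 1 was higher and 2 lower than in NB1, beside 1.81% and 1.13% of all genes tested. Their median log2 difference was -0.25, and DESeq2 called 0 of them. Prox1 differed more between the clusters at a pseudo-time of 11.5 to 12.5, as given below. Dcx, Prox1, Sox11 and Igfbpl1 place NB2 among young cells of the granule lineage, but do not tell a neuroblast from GCimm1. Over pooled nuclei they stood at 403, 704, 590 and 668 CPM in NB2 and at 321, 825, 558 and 593 CPM in GCimm1. However, 3 genes often used for this stage (Neurod1, Tubb3 and the progenitor gene Sox2) were listed with 0 UMIs in every nucleus of every cluster and could not be used.

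Several defining markers of other cell types were low or at 0 in NB2, but the summed levels of some lists were not. Mki67 and Top2a, which are transcribed in dividing cells, stood at 1.1 and 0.3 CPM in NB2 against 120 and 450 CPM in NPC. Of the 14 genes of the GABAergic interneuron list in the files, 5 were at 0 in NB2, among them Dlx2, Dlx5, Dlx6 and Lhx6, which define that lineage. That list summed to 195, 206 and 179 CPM in NB2 of w1, w2 and w4 and to 349, 422 and 428 CPM in NB1. Of the 10 genes of vascular leptomeningeal cells and pericytes, 5 were at 0 and their summed level was 3.1, 1.3 and 12.8 CPM in the 3 libraries. The summed level of the oligodendrocyte list was 125, 91.6 and 115 CPM in NB2 and 136, 158 and 155 CPM in NB1. Of the 11 genes of the Cajal-Retzius list, whose cells also hold Calb2, Lhx1, Lhx5, Ebf2 and Ebf3 were at 0 and Reln, which defines those cells, was at 1.08 CPM in NB2, while Calb2 and Ebf1 were both higher in NB2 than in NB1. The summed level of that list was 461, 457 and 833 CPM in NB2 and 213, 259 and 341 CPM in NB1. Calb2 alone gave 391, 368 and 602 CPM of the NB2 sums. The mossy and pyramidal cell list, which also holds Calb2, summed to 495, 461 and 717 CPM in NB2 and to 337, 353 and 280 CPM in NB1. The astrocyte list summed to 497, 495 and 692 CPM in NB2 and to 649, 618 and 612 CPM in NB1.

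Of the 5 genes given as markers of NB2, Tac2, Calb2, Cdh4 and Tenm4 had their highest level of all 13 clusters in NB2. The exception was Arhgap6, at 809 CPM in the pericyte cluster Peri and 641 CPM in NB2. The clusters were drawn by the study on the expression of these same nuclei, so differences between clusters describe how NB2 is set apart and are not independent evidence that it is.

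Tac2 encodes the precursor of neurokinin B, a tachykinin neuropeptide, and lies at chr10:127724478-127731768 on the plus strand of GRCm38. It stood at 353 CPM in w1, 250 in w2 and 384 in w4 in NB2. In NB1 it stood at 42.9, 55.5 and 58.3 CPM, so the clusters lay apart in each library, with a fitted log2 difference of 2.71 ± 0.24 (SE). Within male nuclei of w4, however, Tac2 stood at 398 CPM (252 to 597) in NB2 and 176 (106 to 275) in NB1, with overlapping intervals. Female NB1 nuclei of w4 held 22.2 CPM. At 2000 UMIs per nucleus, Tac2 was detected in 37.7% of 705 NB2 nuclei, 8.41% of 2486 NB1 nuclei and 4.44% of 45 oligodendrocyte nuclei, which should lack it (57.9%, 14.9% and 6.67% before thinning, at median depths of 4961, 4057.5 and 4801 UMIs). The NB2 share lay above the exact 95% interval of the oligodendrocyte share (0.543 to 15.1%). That interval rests on 45 nuclei, too few to place the NB1 share above or at background. Within NB1, Tac2 was uneven along the deposited pseudo-time, at 122 CPM (90.9 to 161) from 10 to 10.5 and 30.6 CPM (22.7 to 40.4) from 13.5 to 14.

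Arhgap6 encodes a GTPase-activating protein that acts on the actin cytoskeleton, and lies at chrX:168795099-169304435 on the plus strand. It stood at 646, 583 and 1038 CPM in NB2 of w1, w2 and w4, and at 13.2, 39.1 and 58.3 CPM in NB1. The fitted log2 difference was 4.65, the largest among the genes chosen for naming. At 2000 UMIs per nucleus Arhgap6 was seen in 38.2% of NB2 nuclei, 2.41% of NB1 nuclei and 0 of 45 oligodendrocyte nuclei (48.5%, 3.57% and 0 of 45 before thinning). A nucleus without a UMI may still hold the transcript, so this share alone does not show how even Arhgap6 is in NB2. Its levels in early and late NB2 nuclei, given below, differed.

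The promoters of Tac2 and Arhgap6 are shown because these are the neuropeptide gene and the gene with the largest difference from NB1. They run from 250 bases before to 50 bases after each start site that RefSeq gives on GRCm38.p6. Arhgap6 has 3 such starts, and no entry was found for Calb2, Cdh4 or Osbpl10. Capitals mark CAGCTG, an E-box, the kind of site that basic helix-loop-helix factors bind.
Tac2, chr10:127724228-127724527, plus strand: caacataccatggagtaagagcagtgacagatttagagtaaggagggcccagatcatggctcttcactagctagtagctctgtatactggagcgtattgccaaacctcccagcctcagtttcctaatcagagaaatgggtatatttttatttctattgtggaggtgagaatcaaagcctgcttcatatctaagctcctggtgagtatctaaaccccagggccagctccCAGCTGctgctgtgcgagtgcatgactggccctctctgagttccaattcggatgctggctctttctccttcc
Arhgap6 start 1, chrX:168794849-168795148, plus strand: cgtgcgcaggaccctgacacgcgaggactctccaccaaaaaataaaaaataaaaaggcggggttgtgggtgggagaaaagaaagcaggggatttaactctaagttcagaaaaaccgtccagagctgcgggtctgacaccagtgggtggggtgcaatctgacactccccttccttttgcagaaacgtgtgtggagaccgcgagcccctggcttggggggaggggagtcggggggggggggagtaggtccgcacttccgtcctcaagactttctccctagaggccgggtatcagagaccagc
Arhgap6 start 2, chrX:169036361-169036660, plus strand: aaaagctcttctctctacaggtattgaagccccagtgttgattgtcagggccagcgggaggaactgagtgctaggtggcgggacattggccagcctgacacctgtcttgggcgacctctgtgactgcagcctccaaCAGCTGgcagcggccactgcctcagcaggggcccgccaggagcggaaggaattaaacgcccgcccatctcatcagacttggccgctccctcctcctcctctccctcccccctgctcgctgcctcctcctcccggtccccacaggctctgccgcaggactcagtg
Arhgap6 start 3, chrX:169112628-169112927, plus strand: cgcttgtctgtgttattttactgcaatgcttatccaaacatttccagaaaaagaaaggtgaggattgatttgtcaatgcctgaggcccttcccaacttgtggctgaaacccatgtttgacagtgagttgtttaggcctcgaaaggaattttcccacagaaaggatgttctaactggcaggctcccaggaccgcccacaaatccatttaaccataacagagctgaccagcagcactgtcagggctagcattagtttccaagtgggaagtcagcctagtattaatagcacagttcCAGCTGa
CAGCTG, which is its own reverse complement, was found once in the Tac2 window and once each in the windows of the Arhgap6 starts 2 and 3, and not in that of start 1. It was held by 16.3% of the 32851 promoters used, which are those of the RefSeq set with a chromosome left out. Among genes higher in NB2 than in NB1 it was held by 42 of 236 promoters (17.8%), which covered 170 of 244 genes. Among genes lower in NB2 it was held by 30 of 173 (17.3%), which covered 106 of 153 genes. The shares of the NB2 genes lay near that of all promoters used.

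Cdh4 encodes R-cadherin, a classical cadherin of the nervous system, and lies at chr2:179442431-179899373 on the plus strand. It stood at 957, 295 and 1255 CPM in NB2 and at 68.4, 75.8 and 87.4 CPM in NB1 of w1, w2 and w4. The NB2 level in w2 was thus well under those of w1 and w4 but above every NB1 level, and the fitted log2 difference was 3.22. In w2 the 13 male NB2 nuclei held 44.3 CPM of Cdh4 (9.13 to 129) and the 129 female ones 327 CPM. The male NB1 nuclei of w2 held 81.1 CPM (66.2 to 98.4), above the male NB2 nuclei but with overlapping intervals.

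Calb2 encodes calretinin, a calcium-binding protein that marks immature granule cells, and lies at chr8:110137502-110168210 on the minus strand. Its levels were 391, 368 and 602 CPM in NB2 and 142, 166 and 173 CPM in NB1, a log2 difference of 1.37. Tenm4 encodes a teneurin, a transmembrane protein that pairs neurites with their partners, and lies at chr7:96171246-96911093 on the plus strand. It stood at 3361, 2458 and 3369 CPM in NB2 and 1411, 1165 and 1571 CPM in NB1, a log2 difference of 1.09. All 5 markers were higher in NB2 than in NB1 in each library. Fitted over the libraries in same-sex nuclei, the log2 differences were of similar size, at 2.60 for Tac2, 4.63 for Arhgap6, 3.21 for Cdh4, 1.51 for Calb2 and 1.15 for Tenm4. In w4 alone Tac2 and Cdh4 lay closer in same-sex nuclei, since male NB1 nuclei held more of both than NB1 as a whole, at 176 and 194 CPM.

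Among the 8295 features with at least 50 UMIs in NB2, 46 (0.555%) had a CPM in NB2 at least 1.5 times that of every other cluster, and 9 of them were unnamed gene models. NB1 was the next cluster for 22 of the 46 and GCimm1 for 10. Tac2 had the largest lead, 5.88 times the level of GCimm1. Calb2 led by 2.56 times and Tenm4 by 2.40 times, each ahead of NB1.

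The other leading genes had several roles. Grin3b, a subunit of NMDA glutamate receptors, stood at 25.8, 17.3 and 25.6 CPM in NB2 of w1, w2 and w4, 2.76 times the pooled level of NB1. Nnat, which encodes the endoplasmic reticulum proteolipid neuronatin, stood at 2641, 2680 and 3087 CPM in NB2 and at 1125, 1452 and 1938 CPM in NB1. Nnat was thus above NB1 in each library, with a lead of 2.08 times. Adamtsl3, a secreted matrix protein, had a lead of 2.85 times from 159 and 116 CPM in w1 and w2, but in w4 it was at 38.4 CPM in NB2 against 67.2 in NB1. Also in the group were Megf6 (3.19 times), Kctd4 (2.22), Sh3bgrl2 (2.04), Gldn (2.04), Fam114a2 (1.88), the receptor phosphatase gene Ptprf (1.87), the cell adhesion gene Chl1 (1.86) and the nuclear factor gene Aff3 (1.82). Grip1os2 led by 3.80 times, but it is antisense to Grip1, itself higher in NB2, and the sources do not state whether counting used the strand, so its reads and those of Grip1 may not be separable. Ptprf was at 54.4 CPM in NB2 of w2 against 56.5 in GCimm1, Sh3bgrl2 at 25.6 CPM in NB2 of w4 against 33.6 in NB1, and Grip1os2 at 0 in NB2 of w4, so these genes, like Adamtsl3, did not lead in every library. Without w1 only 29 genes passed the same rule, and 15 of the 46 had a lead of at least 2 times.

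**Figure D2:**
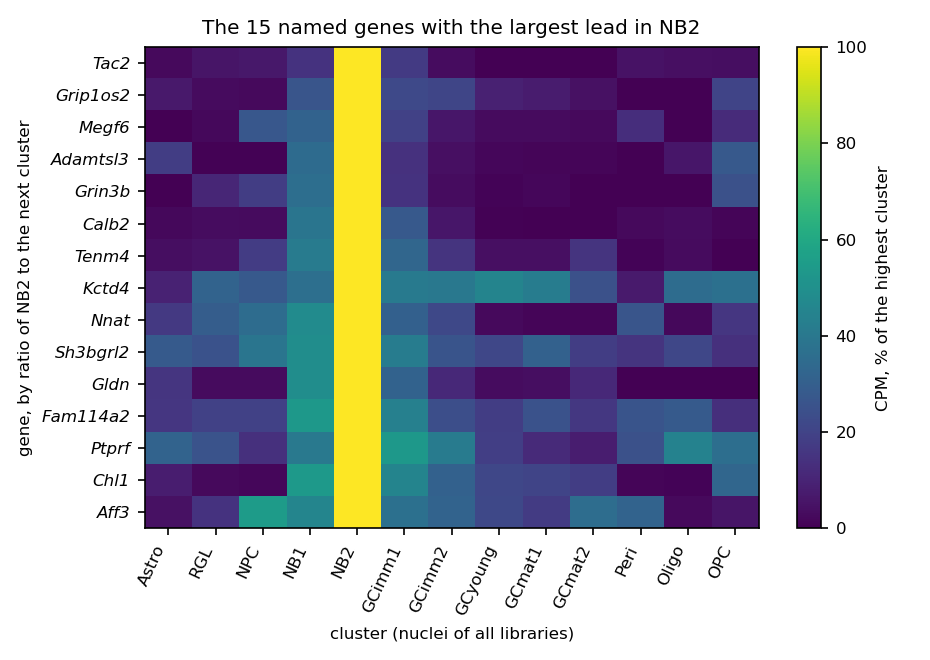
CPM of the 15 named genes with the largest lead in NB2 (vertical axis) in the 13 clusters (horizontal axis, nuclei of all libraries pooled), coloured as a percentage of the cluster with the highest level. NB2 is at 100% in each line by choice of the genes. Tac2 leads its next cluster, GCimm1, by 5.88 times.

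NB2 was then compared with NB1 gene by gene. Counts were summed per library and cluster, and 13513 genes were tested in edgeR's quasi-likelihood model with a term for the library. Genes were called where NB2 and NB1 differed by 1.5 times or more and the p adjusted by the Benjamini-Hochberg method was 0.05 or less. NB2 had 244 genes higher than NB1 (1.81% of those tested) and 153 lower (1.13%), together 2.94%, among them 27 and 16 unnamed gene models. In same-sex nuclei there were 157 higher and 81 lower, of which 152 and 73 were also called with all nuclei. All 387 of the 397 called genes that could be tested in same-sex nuclei had the same direction there. Same-sex nuclei are a part of the nuclei on which these genes were called, so this is not separate evidence. Without w1, which held 77.1% of the NB2 nuclei, 75 genes were higher and 27 lower; without w2, 160 and 88. DESeq2, which differs in its model as well as its scaling, called 141 higher and 53 lower, while edgeR with the scaling method of DESeq2 called 289 and 146. The study compared NB2 with NB1 by a t test over nuclei, at the same fold change and adjusted p. It reported fewer additional transcripts in NB2 and hardly any reduced ones. The 153 lower genes here thus differ from its account, and the cause was not tested.

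The genes with the largest gain over NB1 included a nuclear receptor, extracellular matrix genes and cell surface genes. Esr1, which encodes estrogen receptor alpha and lies at chr10:4611593-5005614, stood at 47.0, 58.4 and 51.2 CPM in NB2 of w1, w2 and w4. In NB1 it stood at 1.57, 2.45 and 11.2 CPM, so the NB2 levels were close to each other and above the NB1 level of each library. The log2 difference was 4.49, and 4.59 in same-sex nuclei, but in w4 the 5 UMIs of Esr1 in NB1 nuclei with a sex call all lay in male nuclei, at 46.3 CPM, beside 4 UMIs in NB2, so in that library NB2 and male NB1 nuclei did not differ beyond counting error. Esr1 was also present in GCimm1, at 37.3 CPM pooled, and so was not particular to NB2.

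Ltbp1, which encodes a binding protein of latent TGF-beta, stood at 75.9, 21.2 and 51.2 CPM in NB2 and at 1.89, 1.96 and 6.72 CPM in NB1, a log2 difference of 4.57. Itga9, an integrin subunit, stood at 60.6, 22.6 and 128 CPM in NB2 and at 5.03, 4.89 and 13.4 CPM in NB1, a difference of 3.14. For both genes the level in w2 was the lowest of NB2 but still above all NB1 levels. B3glct, a glucosyltransferase of thrombospondin repeats, stood at 59.2, 54.4 and 115 CPM against 8.64, 11.3 and 11.2 CPM, a difference of 2.66.

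Several of the other genes chosen by size act in signalling, lipid handling and ion transport. Prex1, an exchange factor that activates Rac, stood at 161, 83.7 and 141 CPM in NB2 and at 21.8, 24.0 and 22.4 CPM in NB1, a log2 difference of 2.54. Slc24a4, a sodium, calcium and potassium exchanger, was at 36.6, 39.8 and 76.9 CPM against 2.36, 7.58 and 6.72 CPM, a difference of 3.11. It was nonetheless lower in NB2 than in GCimm1 by 0.88 on the log2 scale. Sorl1, a sorting receptor of the endosome, was higher than NB1 by 2.41, and Osbpl10, of the oxysterol-binding family, by 3.12, the latter with a single UMI in NB2 of w4.

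**Figure D3:**
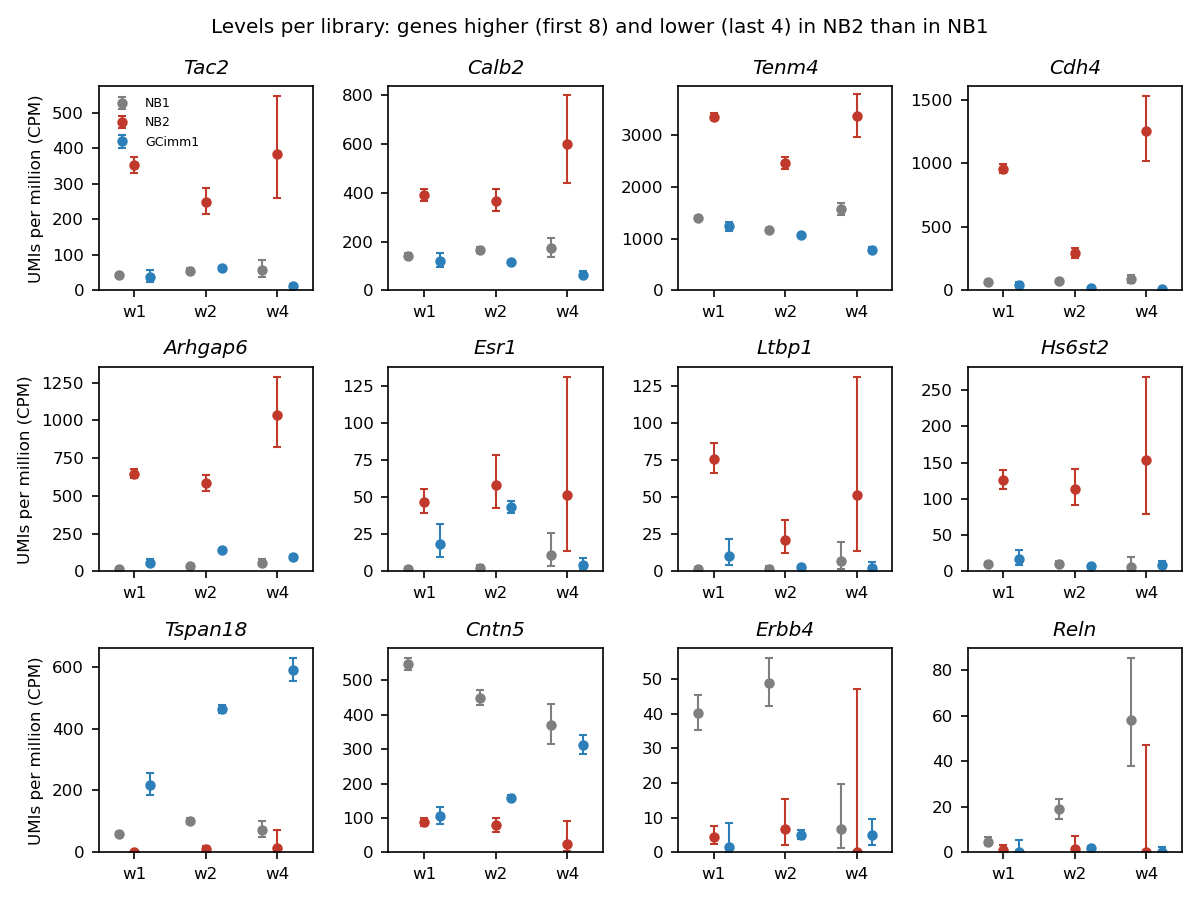
CPM in w1, w2 and w4 (horizontal axis) for NB2, NB1 and GCimm1, with exact 95% Poisson intervals of the counts, for 8 genes higher and 4 genes lower in NB2 than in NB1. Arhgap6 stood at 646, 583 and 1038 CPM in NB2 against 13.2, 39.1 and 58.3 CPM in NB1, and Tspan18 at 2.44, 10.6 and 12.8 CPM against 60.0, 102 and 71.7 CPM.

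The largest losses against NB1 included genes of GABAergic cells and of adhesion. Tspan18, a tetraspanin, stood at 2.44, 10.6 and 12.8 CPM in NB2 and at 60.0, 102 and 71.7 CPM in NB1. Its fitted log2 difference was -3.88, and -5.18 in same-sex nuclei. It was higher again in GCimm1, at 218, 463 and 590 CPM, so NB2 lay under both neighbouring stages. Cntn5, an adhesion molecule of the contactin family, stood at 87.1, 78.3 and 25.6 CPM in NB2 and at 547, 450 and 370 CPM in NB1, a difference of -2.44.

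Chn2, a Rac GTPase-activating protein, was lower in NB2 than in NB1 by 3.09 on the log2 scale, at 4.53, 9.30 and 12.8 CPM against 56.4, 47.0 and 24.6 CPM. Rftn2, a lipid raft protein, was at 5.22, 10.6 and 25.6 CPM in NB2 against 53.3, 41.8 and 71.7 CPM in NB1. Megf11, a receptor-like protein, was at 9.05, 3.98 and 12.8 CPM against 41.0, 46.5 and 40.3 CPM. Each of these 3 genes was lower in NB2 in all 3 libraries. Reln, Tmcc3, Exph5, the homeobox gene Dbx2, Erich2 and Gad1os were also among the largest losses, with at most 5.31 CPM in NB2 of w1 and w2. Gad1os is antisense to Gad1, and without a stated strand in the counting their reads may not be separable. Tmcc3, Dbx2 and Erich2 were not called in same-sex nuclei.

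Most GABA markers that could be tested were lower in NB2 than in NB1. Of the 7 tested genes of the GABAergic interneuron list, 5 were lower, beside 1.13% of all genes, 0 were higher and 2 were not called, and DESeq2 called 4. The list's median log2 difference was -2.61 beside -0.04 over all genes. Gad1, the main enzyme of GABA synthesis, stood at 9.05, 25.2 and 38.4 CPM in NB2 and at 35.2, 48.7 and 47.0 CPM in NB1, so the clusters were closest in w4. Erbb4, a neuregulin receptor, stood at 4.53, 6.64 and 0 CPM in NB2 and at 40.2, 48.9 and 6.72 CPM in NB1. Gad2 was lower by 2.09 and Reln by 3.57 on the log2 scale.

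Cell cycle and progenitor genes were also lower in NB2 or not called, and most were not called. Of 21 cell cycle genes 0 were higher and 2 lower, beside 1.81% and 1.13% of all genes tested: Cdk6, by 1.91 on the log2 scale, and Ccnd2, by 1.17. Of 9 progenitor genes 1 was lower, Eomes, the T-box factor of intermediate progenitors, at 10.4, 7.97 and 25.6 CPM in NB2 against 39.8, 27.6 and 44.8 CPM in NB1. The summed level of the cell cycle list was 222, 262 and 192 CPM in NB2 and 405, 370 and 439 CPM in NB1. In the radial glia-like list Slc1a3, a glutamate transporter, was lower by 1.34, whereas Padi2 and Etv4 were higher, by 2.26 and 2.74. Etv4 remained under 5 CPM in NB2 of each library.

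Early neuronal genes were called in part. Of 15 tested neuroblast and immature neuron genes 4 were higher in NB2 than in NB1 and 1 was lower, beside 1.81% and 1.13% of all genes tested, and 10 were not called, with a median log2 difference of -0.02. The higher ones were Calb2, Tac2, Neurod2 and Rgs6, and the lower one was Elavl4, which encodes a neuronal RNA-binding protein. Calb2 and Tac2 are markers given with the cluster, so their calls follow from that choice. The same holds for Cdh4, Tenm4, Arhgap6 and Tac2 in the families below. All lists were chosen with earlier results of these data known, so a count above the general share is not separate evidence. Rgs6, a regulator of G protein signalling, stood at 2160, 2184 and 1934 CPM in NB2 and at 569, 597 and 567 CPM in NB1. Elavl4 stood at 58.2, 55.8 and 76.9 CPM in NB2 and at 164, 113 and 110 CPM in NB1. Rgs6 in NB2 was close to its level in GCimm1, from which it was not called different (log2 difference -0.33).

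Glutamate receptor genes were higher in NB2 where they were called. Of 27 tested, 6 were higher than in NB1 (beside 1.81% of all genes) and 0 lower, and the median of the list was 0.29. Grin2a, an NMDA receptor subunit, stood at 385, 328 and 410 CPM in NB2 against 85.2, 135 and 125 CPM in NB1. Grid1, a delta receptor, stood at 710, 523 and 423 CPM against 239, 251 and 222 CPM. The others were Grik3 (1.80), Grin3a (1.61), Grip1 (1.18), a scaffold of AMPA receptors, and Grm8 (1.13), a metabotropic receptor. Grik3 did not hold in each library, since in w2 it was at 15.9 CPM in NB2 and 16.9 in NB1. Of 16 GABA receptor and chloride transporter genes only Gabbr2, a GABA-B receptor subunit, was called, at 233, 230 and 282 CPM against 87.4, 96.9 and 82.9 CPM in NB1.

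Ion channel genes were called in both directions, and most were not called. Of 28 calcium channel and transporter genes 4 were higher and 2 lower, beside 1.81% and 1.13% of all genes tested, and 22 were not called. Cacna1g, a T-type channel, stood at 212, 157 and 179 CPM in NB2 and at 53.9, 62.4 and 76.2 CPM in NB1, and Cacna1h, of the same type, was higher by 1.03 on the log2 scale. Cacna1e, an R-type channel, was lower by 1.36. Of 37 potassium and HCN channel genes 4 were higher (Kcnc2, Kcnh8, Kcnj6 and Kcnq3) and 5 lower (Kcnab1, Kcnd3, Kcnh1, Kcnip3 and Kcnk10), and 28 were not called. Of 12 sodium channel and intracellular FGF genes 0 were called by edgeR or by DESeq2, and 4 had an unadjusted p under 0.05 in edgeR.

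Guidance and adhesion families held several called genes. Of 21 Slit, Robo and netrin genes 4 were higher in NB2 than in NB1 and 1 lower, beside 1.81% higher and 1.13% lower of all genes tested, and 16 were not called. Robo2, a Slit receptor, stood at 707, 445 and 371 CPM in NB2 against 217, 138 and 226 CPM in NB1, and the netrin receptor gene Unc5d at 949, 629 and 1755 CPM against 483, 425 and 374 CPM. Ntng1 was higher by 2.28 and Srgap1 by 1.23, and Ntng2 was lower by 0.77. Of 27 cadherin and protocadherin genes 4 were higher and 0 lower: Cdh4, Cdh20 (1.54), Cdh11 (1.48) and Pcdh9 (1.02). Among 10 teneurin, latrophilin and FLRT genes Tenm4 and Adgrl2 (1.62) were higher and Tenm2 was lower, at 617, 754 and 333 CPM against 1226, 1596 and 1037 CPM in NB1. Of 29 immunoglobulin-family adhesion genes 3 were higher, among them Sdk1 (1.91) and Chl1 (0.70), and 4 lower, among them Cntn5, Sdk2 (-2.09) and Cadm1 (-1.91). Chl1 was not called in same-sex nuclei, where its difference was 0.74.

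Several genes that sulfate heparan chains on the cell surface were higher in NB2. Of 30 tested genes of heparan sulfate enzymes and proteoglycans 4 were higher, all of them sulfotransferases, and 2 were lower, the proteoglycan genes Gpc6 and Acan, beside 1.81% higher and 1.13% lower of all genes tested. DESeq2 called 2 of the 30. Hs6st2, a 6-O-sulfotransferase, stood at 126, 114 and 154 CPM in NB2 and at 10.1, 10.8 and 6.72 CPM in NB1, a log2 difference of 3.60. Hs6st3 stood at 1675, 1137 and 1243 CPM against 307, 396 and 379 CPM, a difference of 1.93. Both enzymes lay apart from NB1 in every library. Hs3st5, a 3-O-sulfotransferase, was higher by 1.63, but in w4 it was at 12.8 CPM in NB2 from a single UMI and 53.8 in NB1.

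Counts in the other families are to be read beside the 1.81% of all genes tested that were higher and the 1.13% that were lower. Of 37 regulators of small GTPases of the cytoskeleton 3 were higher (Arhgap6, Prex1 and Arhgap26) and 2 lower (Tiam2 and Plekhg1). Of 43 presynaptic release genes 2 were higher, Unc13c and Sv2c, and 1 was lower, Cadps2. Of 35 postsynaptic scaffold genes 4 were higher, Shank3, Homer2, Shisa6 and Lrfn2, and 0 lower. Of 17 neuropeptide and receptor genes 2 were higher, Tac2 and Tacr1, which encodes the receptor for substance P, another tachykinin. Tacr1 stood at 69.0, 61.1 and 218 CPM in NB2 against 31.1, 32.3 and 24.6 CPM in NB1 and was lower in NB2 than in GCimm1. Bcl2, an inhibitor of apoptosis, was the only called gene of 15 in the apoptosis list, at 213, 169 and 231 CPM in NB2 against 110, 104 and 98.6 CPM in NB1. Of 74 ribosomal protein genes, 67 of the respiratory chain and 11 of heat shock and stress, 0 were called by edgeR or by DESeq2, and 14, 0 and 0 had an unadjusted p under 0.05 in edgeR.

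DESeq2 called fewer genes in most of these lists, so the counts depend on the test. Over all 13513 genes it called 141 higher and 53 lower, where edgeR called 244 and 153. Fewer calls in a list are therefore not particular to that list. It called 3 glutamate receptor genes where edgeR called 6, 3 calcium channel and transporter genes of 6, 4 potassium and HCN channel genes of 9, and 2 Slit, Robo and netrin genes of 5. In the lists of immunoglobulin-family adhesion it called 6 where edgeR called 7, of cadherins 3 of 4, of teneurins, latrophilins and FLRTs 2 of 3, of small GTPase regulators 4 of 5, and of postsynaptic scaffolds 2 of 4. It called 3 of 5 in the neuroblast list, 1 of 3 in the radial glia-like list, 1 of 2 in the cell cycle list and 0 in the neural progenitor list, where edgeR called 1 and 3 had an unadjusted p under 0.05 in edgeR.

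Of the 13 genes that the study's text names for NB2, 11 were higher in NB2 than in NB1. The study chose them on these same samples, so their direction is not independent evidence. The exceptions were Pcdh7, with a log2 difference of 0.35, and Nrxn3, with 0.08. Nrxn3 stood at 522, 247 and 256 CPM in NB2 and at 502, 348 and 114 CPM in NB1, so its order changed between libraries.

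NB2 stood further from GCimm1 than from NB1 in the number of genes called. This comparison uses the same NB2 sums as that with NB1, so they are given side by side and not as separate evidence. Against GCimm1, 414 genes were higher in NB2 (3.06% of 13513) and 612 lower (4.53%), together 7.59%. In same-sex nuclei the counts were 312 and 498. Without w1, whose GCimm1 held only 129 nuclei, they were 221 and 458, and without w2 they were 228 and 314.

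The genes with the largest gain over GCimm1 were already present in NB1. Unc5d, at 949, 629 and 1755 CPM in NB2, was at 4.58, 17.5 and 4.31 CPM in GCimm1, a log2 difference of 6.08. Frmpd4, a postsynaptic scaffold protein, stood at 332, 433 and 307 CPM in NB2 and at 6.11, 16.4 and 14.2 CPM in GCimm1. Ebf1, a transcription factor, stood at 21.9, 39.8 and 154 CPM in NB2 and at 1.53, 0.548 and 1.23 CPM in GCimm1. Each was also higher in NB2 than in NB1, by 1.18 for Unc5d, 1.28 for Frmpd4 and 1.74 for Ebf1.

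Adgrl2, a latrophilin, and Sv2c, a synaptic vesicle protein, were at 0 in GCimm1 of w1 and at 97.2 and 42.1 CPM in NB2 of that library. Cdh20 (5.62), the sulfotransferase gene Chst9 (5.36), Cdh4 (4.77) and Spats2l (4.69) were higher in NB2 than in both neighbours, but they were counted in GCimm1 of w1, with 3, 3, 29 and 7 UMIs. Ntm, an adhesion molecule (4.98), the noncoding RNA Rmst (4.97) and Daam2 (4.96) were higher than in GCimm1 but were not called against NB1, where their log2 differences were 0.64, 0.64 and 0.45.

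The genes lowest in NB2 relative to GCimm1 included adhesion and guidance genes. Tspan18 was lower by 6.34 on the log2 scale. Epha6, an ephrin receptor, stood at 52.6, 78.3 and 38.4 CPM in NB2 and at 475, 940 and 1168 CPM in GCimm1. Ncam2 stood at 67.9, 89.0 and 12.8 CPM against 484, 867 and 1015 CPM. Neither Epha6 nor Ncam2 was called against NB1, where their log2 differences were 0.11 and -0.36. Cntn6 (-4.03), Arhgef28 (-3.93), Antxr1 (-3.88), Mlip (-3.69), Lin7a (-3.69), Asb18 (-3.57) and Myo5b (-3.46) were not called against NB1 either, whereas Adarb2 (-4.40) was lower than in both neighbours, at 1.04 and 1.33 CPM in NB2 of w1 and w2.

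By families, most of the calls against GCimm1 among immunoglobulin-family adhesion molecules, transmitter receptors and calcium channels were lower in NB2. Of the 29 immunoglobulin-family adhesion genes 17 were lower in NB2 and 2 higher, beside 4.53% and 3.06% of all genes, with a median log2 difference of -0.91 beside -0.04. Other adhesion families were mixed, with 6 higher and 8 lower of 27 cadherin and protocadherin genes and 3 higher and 2 lower of 10 teneurin, latrophilin and FLRT genes. Of 16 GABA receptor and chloride transporter genes 7 were lower and 0 higher (median -0.74), among them Slc12a5, the chloride extruder, by 2.02. Of 27 glutamate receptor genes 6 were lower, among them Gria3 (-2.10), and only Grip1 was higher. Of 28 calcium channel genes 8 were lower and 0 higher. The reverse held for 28 neuronal splicing and RNA-binding genes, of which 8 were higher and 0 lower, among them Elavl4 (2.38), Nova1 (1.86) and Elavl2 (1.73), and for 9 Sox genes, of which Sox4, Sox5, Sox6 and Sox9 were higher.

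Along the deposited pseudo-time, an ordering of the nuclei by expression from stem cell to mature neuron, NB2 overlapped NB1 and lay ahead of its median. The median was 13.6, 14.0 and 13.7 in NB2 of w1, w2 and w4, against 12.9, 13.3 and 12.6 in NB1 and 15.7, 16.9 and 17.1 in GCimm1. In w1 and w2 together, the interval from 13.5 to 14 held 217 NB2 nuclei, the most of any interval of that width. When both clusters were limited to nuclei within the interquartile range of NB2 pseudo-time in each library, 187 genes were higher in NB2 and 78 lower. That range left 8 NB2 nuclei in w4, under the minimum of 10, so NB2 in these counts rests on w1 and w2.

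NB2 was not homogeneous along pseudo-time. In w1 and w2 the NB2 nuclei were divided at their library's median into 280 early and 280 late nuclei and into 74 and 74, of which 64 and 21 lay within 0.1 of the division. Since pseudo-time is itself derived from expression, the following values are a description with no test. Of the 290 genes considered by name, 43 were higher in the early nuclei with intervals apart in both libraries, and 22 in the late nuclei. The same count was not made over all genes, so these numbers and those below cannot be set beside a general share.

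Of the 12 named genes with the largest gain over GCimm1, 10 were among the 43 and 0 among the 22, and of the 12 with the largest loss 0 were in either group. Since pseudo-time runs toward GCimm1, the direction of the first count is not separate evidence. Unc5d stood at 1682 CPM in early and 238 in late nuclei of w1, and at 1142 and 124 in w2. Arhgap6 stood at 1001 and 301 CPM in w1 and at 923 and 248 in w2, and Tenm4 at 4216 and 2531 and at 2969 and 1954. For Hs6st2 the levels were 228 and 26.8 CPM in w1 and 227 and 2.64 in w2. Tac2, Calb2 and Cdh4 were in neither group, and Cdh4 was at 971 CPM in early and 944 in late nuclei of w1.

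The 22 genes higher in the late nuclei of NB2 included the granule cell factor Prox1 and receptor genes. Prox1 stood at 564 CPM in early and 878 in late nuclei of w1, and at 425 and 828 CPM in w2. Rgs6 stood at 1679 and 2627 CPM in w1 and at 1650 and 2711 in w2, and Grin2a at 281 and 485 and at 211 and 443. Pcdh9 (205 and 1296 CPM in w1), Tenm2 (295 and 930) and the synaptic adhesion gene Lrrtm3 (19.1 and 193) differed more. Esr1, in contrast to Arhgap6, was higher in the late nuclei, at 34.6 and 59.0 CPM in w1 and 32.1 and 84.4 in w2.

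NB2 and NB1 nuclei at the same pseudo-time differed in the order of these genes, in w1 and in w2 alike. At a pseudo-time of 11.5 to 12.5, Prox1 stood at 327 CPM (266 to 398) in the 59 NB2 nuclei of w1 and at 1035 CPM (971 to 1103) in the 215 NB1 nuclei, and at 276 (197 to 376) in 26 and 989 (896 to 1089) in 103 nuclei of w2. Rgs6 stood at 2627 and 2307 CPM in these NB2 nuclei of w1 and w2 and at 337 and 267 CPM in the NB1 nuclei. NB2 thus held less Prox1 and more Rgs6 than NB1 at this position. From 10.5 to 11.5 Prox1 was closer in the clusters, at 267 CPM (214 to 328) in NB2 and 472 (434 to 512) in NB1 of w1. In w2 it stood at 280 (185 to 407) and 429 (380 to 483) there, with overlapping intervals. At a pseudo-time of 13.5 to 14.5 Prox1 was closer in the clusters, at 866 and 855 CPM in NB2 and 1178 and 865 CPM in NB1 of w1 and w2, while Rgs6 remained higher in NB2, at 2538 and 2187 against 1008 and 859 CPM. This interval was chosen after its values were seen.

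**Figure D4:**
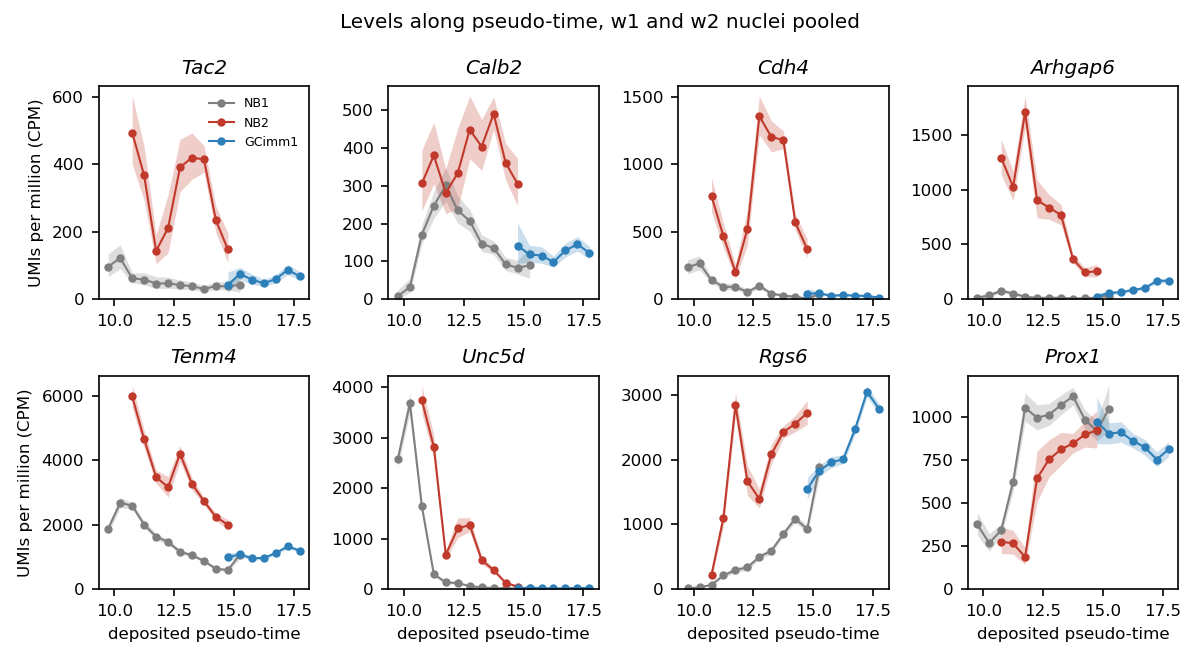
CPM against the deposited pseudo-time for NB2, NB1 and GCimm1 nuclei of w1 and w2 pooled, in intervals of pseudo-time, with exact 95% Poisson intervals. At a pseudo-time of 11.5 to 12, NB2 stands at 186 CPM of Prox1 and 2847 CPM of Rgs6 and NB1 at 1052 and 293 CPM, and intervals with under 20 nuclei of a cluster are not drawn. From 10.5 to 11, Prox1 is at 275 CPM in NB2 and 341 CPM in NB1, with overlapping Poisson intervals.

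Levels also differed between NB2 of w1 and of w2, which came from different mice of mostly opposite sex, so week, sex and mouse cannot be told apart. Of 7336 genes with at least 50 UMIs in either, 107 (1.46%) were at least 2 times higher in w1, of which 64 had intervals apart, and 29 (0.395%) were at least 2 times higher in w2, all 29 with intervals apart. The 107 include the Y-linked genes Ddx3y, Uty, Eif2s3y and Kdm5d. The 29 include Xist, at 14.3 CPM in w1 and 1832 in w2, and Tsix, at 1.39 and 158 CPM. A fixed number of UMIs is reached at a lower CPM in w1, where NB2 held 2871557 UMIs against 753085 in w2, so these counts cannot be compared with each other. Of 3872 genes with a mean of at least 50 CPM in both weeks together, 16 (0.413%) were at least 2 times higher in w1 and 22 (0.568%) in w2. Of the 107, only 1 was also at least 2 times higher in w1 within NB1. Of the 29, 7 were at least 2 times higher in w2 within NB1, and most of the rest were higher there by less. Several genes with a large gain over NB1 were among the 107: Cdh4 (957 and 295 CPM), Ltbp1 (75.9 and 21.2), Itga9 (60.6 and 22.6), Ntng1 (59.2 and 17.3), Grik3 (46.7 and 15.9) and Ldlrad4 (281 and 130). In the other direction Arpp21, an RNA-binding protein gene of neurons, stood at 47.4 CPM in NB2 of w1 and 191 in w2, while NB1 was at 253 and 260. Tuba1a was at 168 and 336 CPM and Actb at 138 and 290, but NB1 shifted likewise, with 191 and 377 CPM for Tuba1a and 179 and 281 for Actb. NB2 of w4, with 18 nuclei and 78060 UMIs, was too small for the same comparison.

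Some genes that set NB2 apart from NB1 also differed by sex in the next stage, within a library. In w2, GCimm1 held 1381 female and 459 male nuclei, and in w4 95 male and 245 female. Arhgap6 stood at 180 CPM in female and 30.1 in male GCimm1 nuclei of w2, and at 229 in male and 23.8 in female GCimm1 nuclei of w4. In each library the sex with the higher level was the one that NB2 had there. Calb2 followed the same pattern, with 131 against 72.4 CPM in w2 and 96.1 against 49.5 in w4, as did Tenm4, with 1209 against 746 and 940 against 703.

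The pattern was shared by a part of the genes. Of the 205 genes higher in NB2 than in NB1 and with at least 10 UMIs in GCimm1 of each library, 120 (58.5%) were higher in both libraries in the GCimm1 nuclei of the NB2 sex, beside 25.1% of the 10250 tested genes with such counts. Of the 112 genes lower in NB2, 75 (67.0%) were lower in those nuclei, beside 28.6%. NB1 was divided in the same way in w2 and w4. Of 152 genes higher in NB2 with enough counts, 54 (35.5%) were higher in both libraries in the NB1 nuclei of the NB2 sex, beside 24.8% of 6808 tested genes, and of 103 lower genes 37 (35.9%) were lower, beside 25.7%. In w4 these shares rest on 30 male and 93 female NB1 nuclei, and the difference between NB1 and GCimm1 was not tested. Arhgap6 stood at 16.8, 39.6 and 64.8 CPM in NB1 nuclei of the NB2 sex in w1, w2 and w4 against 8.08, 24.4 and 60.4 in the other sex. Its intervals lay apart in w1 only, and in w4 the level in male nuclei rests on 7 UMIs. Calb2 was at 1.00, 0.887 and 0.780 times the level of the other sex in NB1, and Tenm4 at 0.772, 0.951 and 1.24 times, so neither followed the pattern there. In GCimm1, at a ratio of at least 1.5 in both libraries the shares were 10.7% and 0.771%. Esr1 and Tac2 did not follow it in w2, at 40.1 and 60.5 CPM in the female and 53.9 and 75.9 in the male nuclei. Median pseudo-time was 16.9 in both sexes of GCimm1 in w2, and 17.7 in male and 17.1 in female nuclei in w4. In NB1 it was 13.2 in male and 12.6 in female nuclei of w1, 12.9 and 13.6 in w2, and 12.54 and 12.55 in w4. NB1 nuclei of the NB2 sex thus lay further along in w1 and w2, so the sexes of NB1 were not matched in stage there. Whether the difference goes with sex, with single mice or with developmental stage was not tested.

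**Figure D5:**
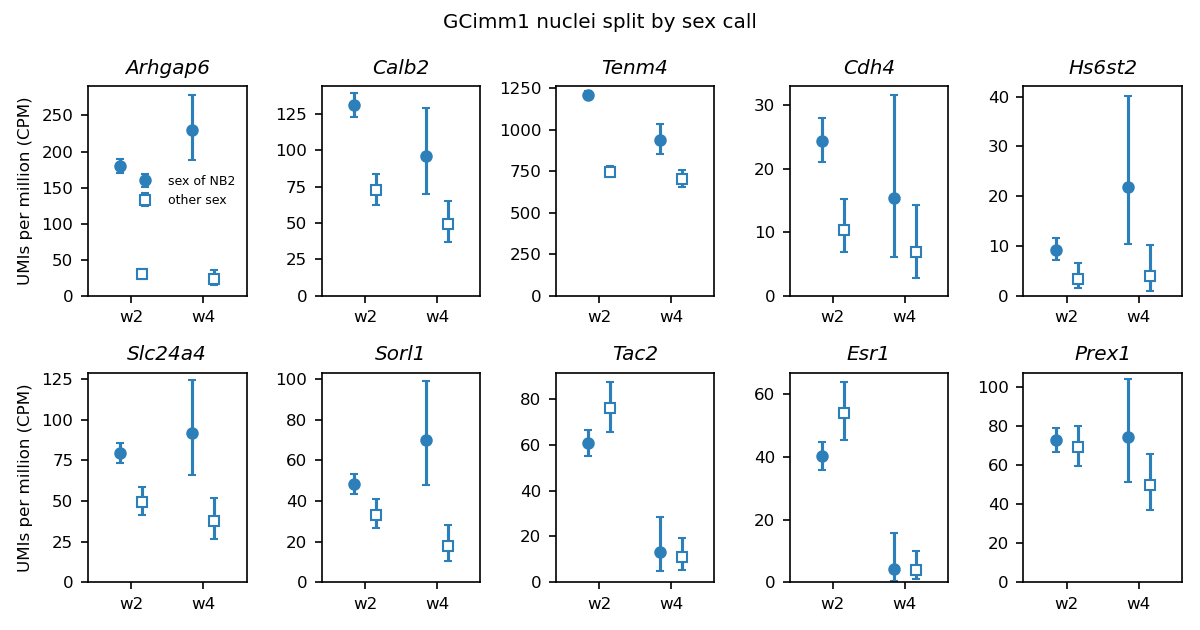
CPM of genes higher in NB2 than in NB1 in GCimm1 nuclei of w2 and w4 (horizontal axis), split by sex call, with exact 95% Poisson intervals. Arhgap6 is higher in female nuclei of w2 (180 against 30.1 CPM) and in male nuclei of w4 (229 against 23.8 CPM), the sexes that NB2 had in those libraries.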

How the data were processed

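Nuclei of the first dataset came from 1 library of dentate gyri per week after tamoxifen (w1, w2, w4 and w8), pooled over mice. Per the study's methods, the authors aligned reads of the 10x 3′ chemistry to GRCm38 (mm10) with STARsolo 2.7.4a (version per the submitters' processing notes), counted exonic and intronic reads and left out reads that mapped to several genes. The deposited count matrices hold raw UMI counts for 45706 features. The deposited table of the dataset holds log2 expression, scaled by the authors with scran, with the cluster and pseudo-time of each of 14367 nuclei. The authors had removed doublets with scDblFinder, nuclei with few features or a high mitochondrial share, sex-linked genes before clustering, and w4 nuclei that they thought might stem from 1 outlying male mouse. No further filter on nuclei was applied here, and 0 columns of per-sample values were left unused. Depth was 13227971 to 28595331 UMIs per library in kept nuclei.

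The members and gene lists were chosen with earlier results of these data known. Counts were summed per cluster and library where a sum held at least 10 nuclei, for the 10 clusters of the lineage (29 sums, 16 residual degrees of freedom, common dispersion 0.0142). edgeR 4.0.16 in R 4.3.3 (TMM scaling, filterByExpr, quasi-likelihood fit with cluster and library terms) gave log2 differences and Benjamini-Hochberg adjusted p-values. Clusters of a library share their mice, and weeks are the only repeats, so p-values measure the spread between these sums. An alternative with DESeq2 1.42.0 and others are given at the end, and the comparison of same-sex nuclei, the division of NB2 along pseudo-time the division of GCimm1 and NB1 by sex and the comparison of weeks by mean CPM were chosen after seeing the data. On simulated data of 13513 genes for NB2 against NB1 the test recovered 69 of 100 genes changed by 1 on the log2 scale and 93 of 100 changed by 2, with 3 false calls. For NB2 against GCimm1 it recovered 58 and 94, with 0 false calls. The simulation gave all genes the same dispersion and held no effect of library, sex or mouse. Only genes above a minimum mean count were changed. The recovery and false calls therefore do not measure how the test performs on the real sums.

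Levels are CPM with exact 95% Poisson intervals, and shares have Clopper-Pearson intervals (Python 3.11.15, scipy 1.17.1). A count of 0 was given the limit of 3 counts. Positions are those of GENCODE M21, in which 45143 of the 45706 feature IDs were found. The genes named were the 5 markers, those the study's text names for NB2, the 12 with the largest called difference in each direction and comparison that kept their direction in every library and had at least 50 UMIs, the 15 with the largest lead in NB2, and the leading members of each list. Arpp21, Tuba1a and Actb were chosen after their values were seen. A few members of the lists are counted but not reported here by name.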

Additional observations from a re-analysis of the deposited data

Results flagged for a closer look

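The share of male nuclei in NB2 minus that in NB1 was 45.0 percentage points in w1, -25.0 in w2 and 75.6 in w4. These values stand out because the sign in w2 is opposite to that in w1 and w4. The difference between the libraries was not tested, since each is 1 pool of mice. Nrxn3 stood out in the same way, with a CPM in NB2 of 0.710 times that of NB1 in w2 while it was above NB1 in w1 and w4, and so did Cntn6, with 0.452 times in w2, from 2 UMIs in NB2, 0 UMIs in NB2 of w4 and a level above NB1 in w1. Neither was called against NB1, and the difference between libraries was not tested for either gene.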

How the results depend on the processing

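For NB2 against NB1 the 397 calls became 194 with DESeq2 (its own model and scaling, 141 higher, 72.7% of calls, against 61.5%), 189 without the library term, 213 in male nuclei, 61 in female nuclei (w2 alone for NB2), 238 in same-sex nuclei and 34 from mean deposited log2 expression per nucleus. Leaving out a library gave 102 to 375, with 102 without w1 and 248 without w2. For NB2 against GCimm1 the 1026 calls became 668 with the sums of the 2 clusters alone, 598 in male and 417 in female nuclei and 95 from mean log2 expression; leaving out a library gave 542 to 771, with 679 without w1 and 542 without w2. The 46 genes highest in NB2 became 83 with libraries weighted equally, 15 at a ratio of at least 2, and 29 to 49 without a library. The cause was not tested. In every alternative called genes mostly kept their direction: with DESeq2 all 397 did, in female nuclei 381 of 389 and without w1 390 of 393. The alternatives use the same nuclei or a part of them, so a kept direction is not separate evidence. NB2 held 1.24, 1.18 and 1.23 times the UMIs per nucleus of NB1 in w1, w2 and w4, but 1.00, 0.985 and 0.996 times the features at 2000 UMIs. Shares of NB2, and of male nuclei in NB2, moved by less than their intervals, while with at least 2 UMIs the male share of NB1 fell. No paired analysis was possible because the labels give no replicate numbers, beyond the library term, which ties together the clusters of a library in the edgeR fit. NB2 of w4 rests on 18 nuclei, so single genes there rest on few UMIs.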
